A study of Mus musculus with 12 samples.

Results

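The genes described here are 31 genes of mesenchymal stroma and bone matrix, followed through mouse bone marrow with and without the gene Hopx and with and without MN1 overexpression. They were chosen by name, from what is known of their products, but with earlier results of these data known. All 31 symbols were found among the 24444 genes of the deposited tables. They fall into 7 roles: 4 niche factors and marrow adipocyte genes (Kitl, Lepr, Angpt1, Adipoq), 3 regulators of niche cells (Foxc1, Ebf3, Grem1), 6 collagen chains (Col1a1, Col1a2, Col3a1, Col5a2, Col6a1, Col6a2), 7 genes of bone formation (Alpl, Sparc, Bglap, Bglap2, Ibsp, Sp7, Mmp13), 2 receptors of mesenchymal cells (Pdgfra, Pdgfrb), 6 other matrix genes (Dcn, Lum, Postn, Fbn1, Bgn, Mgp) and 3 secreted modulators (Igfbp4, Igfbp5, Serpine2).

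Bone marrow holds few mesenchymal cells among many blood cells. Leptin receptor-positive stromal cells, also called CXCL12-abundant reticular cells, surround the sinusoids, secrete the factors that keep haematopoietic stem cells alive and give rise to marrow adipocytes and osteoblasts. Osteoblasts lay down type I collagen, mineralise it with alkaline phosphatase and the acidic protein bone sialoprotein, and secrete osteocalcin once mature.

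The 12 libraries came from bone marrow cells of C57BL/6 mice and fell into 4 groups of 3. The groups were Hopx-knockout marrow with MN1 overexpression (MN1_KO, replicates 5, 7 and 8), Hopx wild-type marrow with MN1 overexpression (MN1_WT, replicates 2, 3 and 4), Hopx-knockout marrow labelled aged (aged_KO, replicates 3, 9 and 10) and Hopx wild-type marrow labelled aged (aged_WT, replicates 1, 6 and 7). The labelled age was 16 weeks with MN1 and 18 weeks in the aged groups, and the MN1 and aged libraries were deposited as separate tables, so MN1, age and table cannot be told apart. How MN1 was introduced, whether cells were transplanted, which Hopx allele was used and how the marrow was collected from the bone are not given in the sources used here. The labels name no sorting step, so blood cells and stroma were read together, and in such bulk samples fewer cells of a type and less RNA per cell cannot be told apart. Nothing in the labels says that replicates were separate mice, so the p-values measure the spread between these libraries.

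Library totals ran from 16544388 to 28409034 counts. Hopx stood at 2.84 to 3.12 CPM (read counts scaled to the size of the library, with TMM scaling) in MN1_KO, against 11.8 to 27.0 CPM in MN1_WT, and at 0 to 0.141 CPM in aged_KO, against 15.0 to 35.1 CPM in aged_WT. Mn1 went against its label in 2 libraries. MN1_KO had 38.4, 41.1 and 22.2 CPM of Mn1, and in MN1_WT the third replicate had 30.5 CPM. The libraries labelled MN1_WT replicates 2 and 4 had 0.383 and 0.158 CPM of Mn1, no more than aged marrow, whose 6 libraries spanned 0.0859 to 1.25 CPM. The same libraries stood apart in sex-linked transcripts. Summed over 4 Y-linked genes, MN1_KO had 8.08 to 19.2 CPM, the 3 MN1_WT replicates had 234, 68.6 and 227 CPM, and no aged library exceeded 0.153 CPM. Xist was at 4010, 3480 and 587 CPM in MN1_KO replicates 5, 7 and 8, and at 17.6, 3350 and 2.37 CPM in MN1_WT. The aged libraries had 485 to 902 CPM of Xist. The part of these differences in the results below was not tested, and the counts of called members that rest on MN1_WT are also given without replicates 2 and 4. Counts of groups without overlap and of list genes that rest on MN1_WT were not recomputed without them.

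Many of these genes were at low levels. In TPM, the unit that allows levels of different genes to be compared, 12 of 31 members averaged under 1 TPM in MN1_KO, 10 in MN1_WT, 17 in aged_KO and 17 in aged_WT. Igfbp4, which binds insulin-like growth factors, led in 3 groups, with 124 ± 18.1 TPM in MN1_WT, 107.5 ± 20.8 TPM in aged_KO and 87.5 ± 7.16 TPM in aged_WT (SD, n = 3 each). Serpine2, the protease inhibitor nexin, led in MN1_KO at 291 ± 218 TPM, ahead of Igfbp4 at 129 ± 33.7 TPM (SD, n = 3), and the SDs of these neighbours overlapped. In aged_WT the next levels were Serpine2 at 20.2 ± 1.23, Mgp at 9.46 ± 1.71, Adipoq at 5.78 ± 0.628, Bgn at 5.71 ± 0.933, Igfbp5 at 5.57 ± 0.804 and Angpt1 at 5.55 ± 1.04 TPM (SD, n = 3). The last 4 of these lay within 1 SD of each other.

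**Figure D1:**
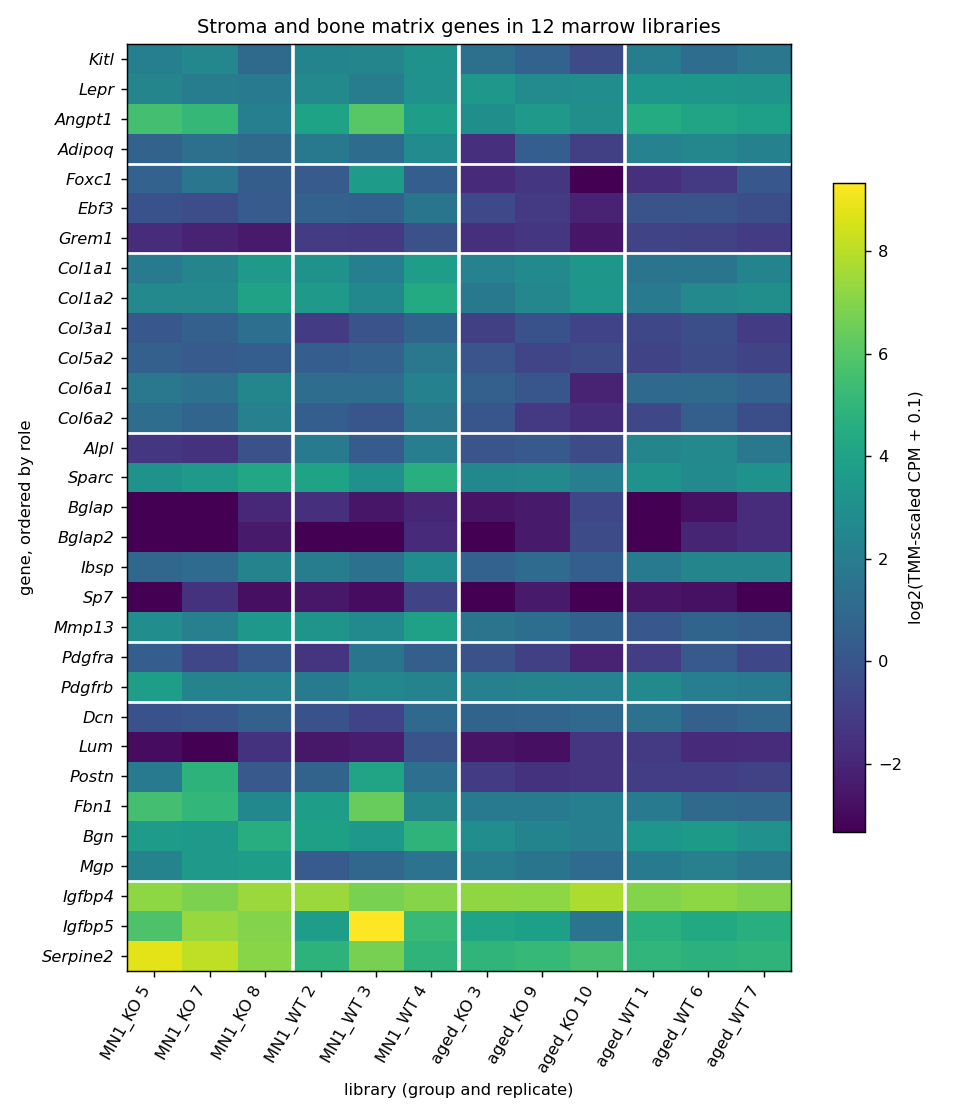
Heat map of the 31 genes (rows, ordered by role) in the 12 libraries (columns, by group and replicate), coloured by log2 of TMM-scaled CPM + 0.1. Igfbp4 is high in all columns. Serpine2 and Igfbp5 are brightest in the MN1_KO columns and in that of MN1_WT replicate 3. Bglap, Bglap2, Sp7 and Lum are dark in nearly every column.

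The osteocalcin genes were close to absent, and Sp7, Lum and Grem1 were low. Bglap and Bglap2 encode osteocalcin, the hormone-like protein of mature osteoblasts, and are near-identical neighbours on chromosome 3 (88383501 to 88384464 and 88377736 to 88378699, minus strand) beside Bglap3, so reads could be split between them and the values are uncertain. Bglap had 0, 0 and 4 counts in MN1_KO, 6, 2 and 4 counts in MN1_WT, 1, 2 and 8 counts in aged_KO, and 0, 1 and 4 counts in aged_WT. Bglap2 had 0, 0 and 2 counts in MN1_KO, 0, 0 and 5 counts in MN1_WT, 0, 2 and 9 counts in aged_KO, and 0, 3 and 4 counts in aged_WT. The most osteocalcin counts were in aged_KO replicate 10, and the groups overlapped. Sp7, the osteoblast transcription factor osterix, had at most 13 counts in any library. Lum, the keratan sulphate proteoglycan lumican, had at most 22 counts, and Grem1, a BMP antagonist of skeletal stem cells, had at most 20 counts. For each of Sp7, Lum and Grem1 the highest library was MN1_WT replicate 4. These 5 genes were too low to pass the filter on low counts in any main comparison, so differences in them were not tested there. Grem1 stood at 0.241, 0.301 and 0.0706 CPM in aged_KO, against 0.512, 0.437 and 0.356 CPM in aged_WT. With MN1 it stood at 0.2, 0.128 and 0.0873 CPM in MN1_KO, against 0.383, 0.348 and 0.791 CPM in MN1_WT. Neither pair of groups overlapped, but with at most 20 counts a library these values are uncertain.

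The comparison of aged_KO with aged_WT asks what differs in marrow that lacks Hopx when no MN1 is added. Alpl, Adipoq, Ibsp, Angpt1 and Bgn were lower in aged_KO, by 1.79- to 6.99-fold, and no member was called higher. Of the 31 members 24 passed the filter on low counts, and Foxc1 and Postn joined the 5 untested genes in failing it. Lower calls (edgeR adjusted p under 0.05 over 12771 genes) took 5 of the 24, or 20.8%, where the background over all tested genes was 15.8%, and higher calls took 0 of 24 against a background of 15.6%. The share of lower calls was thus near the background. At an unadjusted p under 0.05 the edgeR counts were 12 of 24 members and 5511 of 12771 genes. DESeq2 called 2 members higher and 5 lower, beside 2240 genes higher and 2030 lower of 12771. The median log2 fold change was -0.41 over the tested members and -0.02 over all genes. Summed over a role, levels in aged_KO lay below those in aged_WT for the niche and adipocyte genes (16.0 to 21.2 CPM in aged_KO against 31.3 to 40.5 CPM in aged_WT) and for bone formation (8.75 to 11.7 CPM in aged_KO against 18.5 to 19.8 CPM in aged_WT). The niche regulators also lay below, at 0.212 to 1.02 CPM in aged_KO against 1.59 to 2.04 CPM in aged_WT. The secreted modulators lay above, at 194 to 269 CPM in aged_KO against 177 to 192 CPM in aged_WT. The collagen sums overlapped, at 11.9 to 21.9 CPM in aged_KO and 9.89 to 15.6 CPM in aged_WT. The receptor and other matrix sums also overlapped. No background over all genes was taken for these sums.

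Of the 4 niche factor and adipocyte genes, Adipoq and Angpt1 were called lower. Adipoq encodes adiponectin, a hormone of fat cells that marrow stromal cells of the adipocyte lineage also express (chromosome 16, 23146536 to 23158028, plus strand, GRCm38, the assembly also named mm10). Its level was 0.241, 1.29 and 0.423 CPM in aged_KO replicates 3, 9 and 10, against 4.72, 5.68 and 4.58 CPM in aged_WT replicates 1, 6 and 7. Every aged_KO library was below every aged_WT library, with 40 counts in all in aged_KO against 290 in aged_WT. The log2 fold change was -2.81 ± 0.46 (SE, n = 3 and 3; edgeR adjusted p = 0.00304). Angpt1 encodes angiopoietin-1, the ligand of the receptor Tie2 (chromosome 15, 42424723 to 42676977, minus strand), and stood at 7.88, 11.1 and 7.62 CPM in aged_KO, against 21.9, 16.9 and 14.2 CPM in aged_WT. The groups did not overlap, and the log2 fold change was -0.97 ± 0.21 (SE; edgeR adjusted p = 0.00848). Angpt1 is also made by megakaryocytes and blood progenitors, and the 12 megakaryocyte markers examined beside it were all lower in aged_KO, as given with the other cell types. The part of these cells in the Angpt1 level was not tested.

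Kitl and Lepr, the genes that define the niche cells, were not called. Kitl, the stem cell factor on which haematopoietic stem cells depend, stood at 2.41, 1.46 and 0.635 CPM in aged_KO, against 3.87, 2.18 and 3.16 CPM in aged_WT. Only aged_KO replicate 3 reached into the range of aged_WT (edgeR adjusted p = 0.103). Lepr, the leptin receptor, stood at 10.7, 6.74 and 7.34 CPM in aged_KO, against 10.0, 10.1 and 9.42 CPM in aged_WT, with the highest value in a knockout library (edgeR adjusted p = 0.366). Ebf3, a transcription factor that holds these cells in their niche state, stood at 0.602, 0.344 and 0.141 CPM in aged_KO, against 0.853, 0.874 and 0.713 CPM in aged_WT. Its groups did not overlap, but it was not called (edgeR adjusted p = 0.0944). Foxc1, another such factor, stood at 0.181, 0.301 and 0 CPM in aged_KO, against 0.227, 0.340 and 0.967 CPM in aged_WT, and was too low to be tested here.

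Of the bone formation genes, Alpl and Ibsp were called lower. Alpl, the alkaline phosphatase that frees phosphate for mineral (chromosome 4, 137741733 to 137796384, minus strand), stood at 0.903, 1.07 and 0.635 CPM in aged_KO, against 5.34, 6.12 and 3.31 CPM in aged_WT. Ibsp, bone sialoprotein (chromosome 5, 104299171 to 104311469, plus strand), stood at 1.5, 2.06 and 1.27 CPM in aged_KO, against 3.52, 5.24 and 5.34 CPM in aged_WT. For both genes the highest aged_KO library was below the lowest aged_WT library. The log2 fold changes were -2.44 ± 0.32 for Alpl (edgeR adjusted p = 0.00121) and -1.51 ± 0.28 for Ibsp (edgeR adjusted p = 0.00488; SE, n = 3 and 3). Alpl is also expressed by neutrophils, of whose 12 markers 7 were higher and 0 lower in aged_KO. The part of neutrophils in the Alpl level was not tested. Sparc, the collagen-binding protein osteonectin, stood at 5.96, 6.05 and 4.23 CPM in aged_KO, against 8.58, 6.55 and 8.81 CPM in aged_WT. Its groups did not overlap, but it was not called (edgeR adjusted p = 0.0800). Mmp13, the collagenase of osteoblasts and hypertrophic cartilage, averaged 2.17 ± 0.714 CPM in aged_KO and 1.30 ± 0.319 CPM in aged_WT (SD, n = 3 each), with overlapping groups.

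Col1a1, the main chain of type I collagen, stood at 4.82, 6.23 and 10.3 CPM in aged_KO, against 2.79, 2.91 and 5.09 CPM in aged_WT. Only the lowest knockout library overlapped the highest wild-type library, and the gene just missed the call (edgeR adjusted p = 0.0513). It passed on the higher side with median-of-ratios scaling, without the filter, without aged_KO replicate 3 or aged_WT replicate 7, and with DESeq2 (adjusted p = 0.0162). Col1a2, whose product joins it in the same triple helix, stood at 3.43, 5.80 and 10.1 CPM in aged_KO, against 3.52, 6.07 and 7.48 CPM in aged_WT, with full overlap. In both genes replicate 10 was the highest of the aged_KO libraries, and the same library was the lowest of its group for Kitl, Sparc, Bgn and Igfbp5. The fibril chains Col3a1 and Col5a2 lay between 0.356 and 0.903 CPM in the 6 aged libraries and overlapped. Col6a1, a chain of the beaded filaments around cells, stood at 1.38, 0.945 and 0.141 CPM in aged_KO, against 1.93, 1.99 and 1.48 CPM in aged_WT, without overlap and without a call (edgeR adjusted p = 0.147). Col6a2, its partner, overlapped.

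Among the receptors, Pdgfrb, the PDGF receptor of pericytes and stromal cells, stood at 4.45, 4.94 and 4.87 CPM in aged_KO, against 6.54, 4.22 and 3.46 CPM in aged_WT. Its knockout libraries lay within the wild-type range (edgeR adjusted p = 0.951). Pdgfra, the sister receptor of fibroblastic cells, was at or below 1.07 CPM in all 6 libraries and overlapped. Of the other matrix genes, Bgn, the proteoglycan biglycan (chromosome X, 73483602 to 73495933, plus strand), stood at 7.28, 5.07 and 4.23 CPM in aged_KO, against 9.89, 12 and 8.25 CPM in aged_WT. The groups did not overlap and the log2 fold change was -0.84 ± 0.23 (SE; edgeR adjusted p = 0.0223). The call was lost without aged_KO replicate 9 or without aged_WT replicate 6 (edgeR adjusted p up to 0.0905). Dcn, Fbn1 and Mgp were not called and their groups overlapped.

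None of the 3 secreted modulators was called by edgeR. Igfbp4 stood at 151, 145 and 217 CPM in aged_KO, against 125, 144 and 122 CPM in aged_WT. It was the single tested member whose aged_KO libraries all lay above aged_WT, and it missed the edgeR call (adjusted p = 0.0715) but passed with DESeq2 (adjusted p = 0.03965). Igfbp5 stood at 16.7, 13.9 and 2.82 CPM in aged_KO, against 26, 20.5 and 25.6 CPM in aged_WT, without overlap (edgeR adjusted p = 0.204). Serpine2 averaged 38.5 ± 9.34 CPM in aged_KO and 29.8 ± 1.79 CPM in aged_WT (SD, n = 3 each), with overlap (edgeR adjusted p = 0.0962). Over all tested members, 9 of 24 had aged_KO libraries wholly below aged_WT, where 25.9% of all genes did, and 1 of 24 had them wholly above, where 22.4% of all genes did. With the spread taken from all 12 libraries only Adipoq and Alpl stayed called, and Angpt1, Ibsp and Bgn did not (edgeR adjusted p = 0.475, 0.0913 and 0.245).

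**Figure D2:**
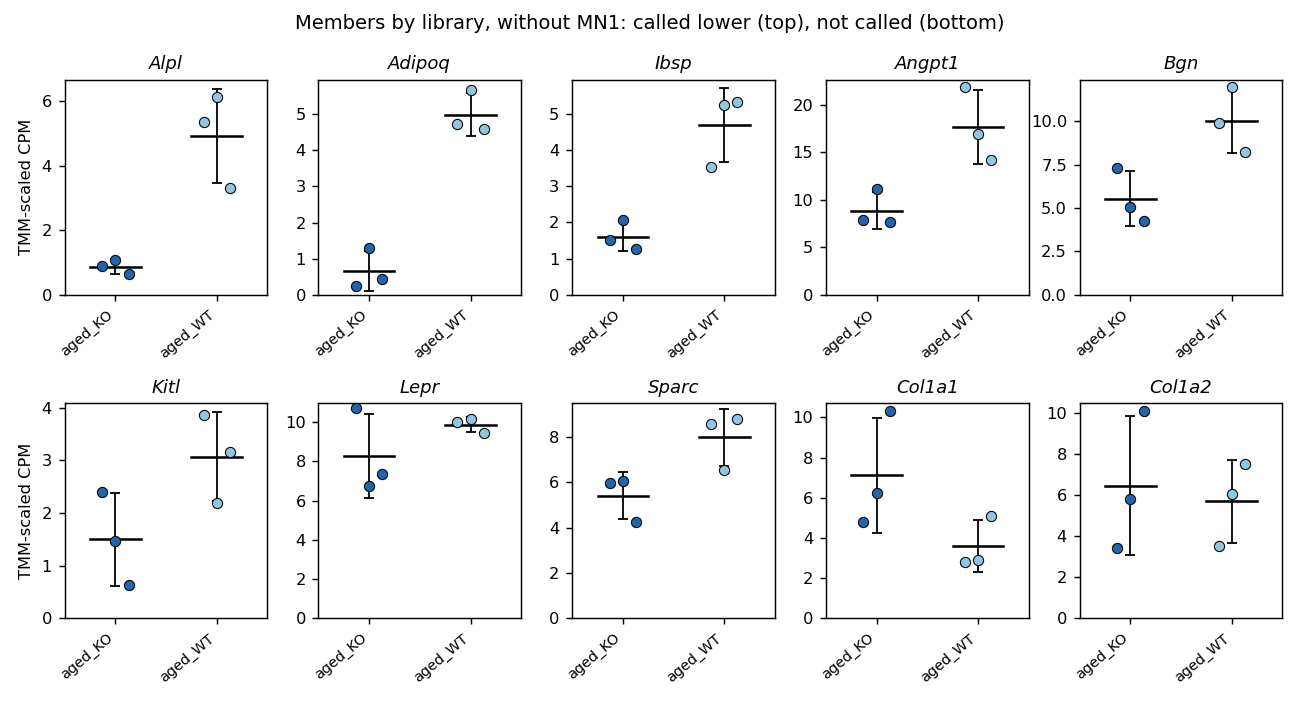
TMM-scaled CPM of 10 genes in the 3 aged_KO and 3 aged_WT libraries (points), with the mean and SD of each group (bars). The 5 genes of the upper row were called lower and their groups do not overlap; in the lower row Kitl, Lepr, Col1a1 and Col1a2 overlap and Sparc does not.

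**Figure D3:**
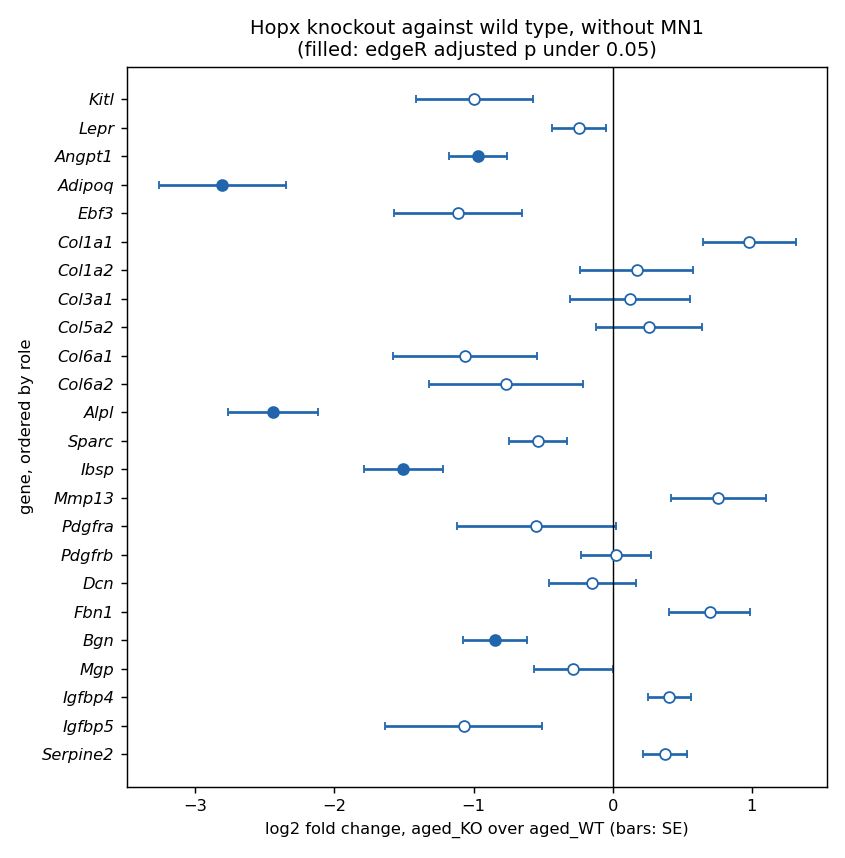
Log2 fold change of aged_KO over aged_WT with its SE for the 24 tested genes, ordered by role; filled points passed the edgeR threshold. The filled points are Angpt1, Adipoq, Alpl, Ibsp and Bgn, all left of 0, and Col1a1 is the point farthest to the right.

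The sequences just before the start of 3 of the genes called lower, Adipoq, Alpl and Bgn, are shown with that of Mmp13, the gene called in both comparisons of MN1 with aged libraries. They are the 150 bases before the RefSeq start on GRCm38.p6, at chr16:23146386-23146535 (plus strand), chr4:137796385-137796534 (minus strand), chrX:73483451-73483600 (plus strand) and chr9:7272364-7272513 (plus strand), read 5′ to 3′. Capitals mark matches, on either strand, to the motifs CCAAT (the CCAAT box), TATAAA (the TATA box), TGTGGT (the core bound by RUNX factors) or CCCNNGGG (the core bound by EBF factors).
Adipoq: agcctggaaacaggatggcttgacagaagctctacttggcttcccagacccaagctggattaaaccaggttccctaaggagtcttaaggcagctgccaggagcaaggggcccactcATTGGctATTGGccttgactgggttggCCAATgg
Alpl: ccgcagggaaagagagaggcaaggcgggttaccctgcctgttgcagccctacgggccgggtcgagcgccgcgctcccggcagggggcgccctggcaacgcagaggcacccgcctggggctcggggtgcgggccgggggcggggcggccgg
Bgn: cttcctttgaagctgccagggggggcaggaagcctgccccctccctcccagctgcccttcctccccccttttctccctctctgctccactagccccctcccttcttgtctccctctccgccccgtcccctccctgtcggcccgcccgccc
Mmp13: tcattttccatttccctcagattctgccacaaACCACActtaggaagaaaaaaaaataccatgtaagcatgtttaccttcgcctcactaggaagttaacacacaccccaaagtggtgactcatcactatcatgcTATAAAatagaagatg
Adipoq held 3 CCAAT matches close to its start, Mmp13 held 1 TATAAA and 1 TGTGGT match, and Alpl and Bgn held none of the 4 motifs in this window. No match overlapped another. Of 26 windows of 22 member genes, CCAAT was in 6, TATAAA in 7, TGTGGT in 2 and CCCNNGGG in 1. Among 32851 windows of the same length from all genes, CCAAT was in 24.5%, TATAAA in 7.57%, TGTGGT in 8.4% and CCCNNGGG in 7.72%. A match describes the letters of the window and was not tested as a site.

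Other genes of the same cells were counted from lists of textbook markers, also chosen with earlier results of these data known. Over all 12771 genes tested in aged_KO against aged_WT, 15.8% were called lower and 15.6% higher. The median log2 fold change over these genes was -0.02. Of 28 further niche stroma genes 17 were tested and 10 were lower and 1 higher in aged_KO, with a median log2 fold change of -1.05. Gas6, a ligand of TAM receptors, fell to 1.61 ± 0.902 CPM in aged_KO, against 7.55 ± 0.308 CPM in aged_WT (SD, n = 3 each; edgeR adjusted p = 0.00357). Ebf1, which is also a B cell factor, fell to 0.508 ± 0.318 CPM in aged_KO, against 27.3 ± 10.0 CPM in aged_WT, whereas the adhesion gene Mcam rose to 43.1 ± 5.92 CPM in aged_KO, against 11.9 ± 2.56 CPM in aged_WT (edgeR adjusted p = 0.000354 for each). Of 27 osteolineage genes 12 were tested, with 3 lower and 1 higher and a median of 0.04. The pyrophosphate genes Enpp1 (log2 fold change -1.86) and Ank (-0.80) fell, and the phosphatase gene Phospho1, which erythroid cells also express, rose (1.2). Of 45 genes of matrix and collagen processing 32 were tested, with 7 lower and 6 higher and a median of -0.54. Col5a3 (-2.02) and Col14a1 (-2.33) fell and Col5a1 (0.75) rose, so collagen genes moved in both directions.

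Markers of other cells in the same comparison differed in direction from list to list, and are given beside the same background of 15.8% lower and 15.6% higher. Of 14 adipocyte genes 8 were tested, 3 higher and 2 lower in aged_KO, with summed levels of 222 to 252 CPM in aged_KO against 213 to 248 CPM in aged_WT. The lipase gene Lpl fell (-1.13) with Adipoq, while Plin4 (1.71) and Acaca (0.55) rose, Lep was at 0 in both groups and Plin1 at 0 in aged_KO. Pericyte and smooth muscle genes had 3 of 6 tested lower and 0 higher, with Myl9 at -2.66, and summed to 10.4 to 14.9 CPM in aged_KO against 25 to 28.4 CPM in aged_WT, with Cspg4 at 0 in both. Endothelial genes had 5 of 14 lower and 1 higher, and summed to 73.7 to 89.3 CPM in aged_KO against 124 to 139 CPM in aged_WT. One of those lower, Vwf, is in the megakaryocyte list as well. It stood at 12.5 ± 4.40 CPM in aged_KO against 30.2 ± 0.661 CPM in aged_WT (SD, n = 3 each).

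Skeletal muscle genes, which can come from tissue around the bone, had 1 of 2 tested lower and 0 higher, summed to 3.19 to 3.60 CPM in aged_KO against 4.80 to 7.59 CPM in aged_WT, and had Myh4 and Myh1 at 0 in both groups. Cartilage genes summed to 0.558 to 1.2 CPM in aged_KO against 0.625 to 0.967 CPM in aged_WT, with Acan, Sox9 and Col10a1 at 0 in both groups and 0 of 1 tested called. Osteoclast genes had 0 of 5 called and summed to 202 to 265 CPM in aged_KO against 264 to 301 CPM in aged_WT. All 12 megakaryocyte genes were lower, with 71.3 to 156 CPM in aged_KO against 306 to 397 CPM in aged_WT. All 12 B lineage genes were lower, with 30.4 to 47.9 CPM in aged_KO against 521 to 1040.0 CPM in aged_WT. Erythroid genes had 7 of 9 lower and 0 higher, whereas neutrophil genes had 7 of 12 higher and 0 lower. The part of any of these cell types in the values of the 31 genes was not tested.

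With MN1, the knockout comparison gave no call. MN1_KO had 0 of 26 tested members lower and 0 higher than MN1_WT by edgeR, where 0.0% of 13525 genes were called lower and 0.0% higher. At an unadjusted p under 0.05 the counts were 3 members and 1353 genes. DESeq2 called 2 members higher and 1 lower, beside 219 genes higher and 346 lower of 13525. Alpl stood at 0.301, 0.256 and 0.786 CPM in MN1_KO, against 3.60, 1.18 and 4.19 CPM in MN1_WT, so that it was below MN1_WT in every MN1_KO library (edgeR adjusted p = 0.284, DESeq2 adjusted p = 0.0132). Mgp, the matrix Gla protein that keeps soft tissue from calcifying (chromosome 6, 136872435 to 136875823, minus strand), stood at 5.05, 11.2 and 13.7 CPM in MN1_KO, against 1.15, 1.71 and 2.69 CPM in MN1_WT. Serpine2 (chromosome 1, 79794197 to 79861180, minus strand) stood at 452, 278 and 137 CPM in MN1_KO, against 29.3, 105 and 29.9 CPM in MN1_WT. Neither overlapped (edgeR adjusted p = 0.223 and 0.284; DESeq2 adjusted p = 0.000679 and 0.00623). Ebf3 was below MN1_WT in every MN1_KO library, at 0.802, 0.683 and 1.14 CPM in MN1_KO against 1.49, 1.36 and 2.97 CPM in MN1_WT, and was called by neither tool. In all, 2 of 26 members lay wholly below MN1_WT, where 8.64% of genes did, and 2 wholly above, where 6.94% did.

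Within MN1_WT the replicates disagreed over these genes. Igfbp5 stood at 55.8, 169 and 127 CPM in MN1_KO, against 13.8, 646 and 37.7 CPM in MN1_WT, and the lone 646 CPM belonged to replicate 3, the library that expressed Mn1. Fbn1, the microfibril protein fibrillin-1, stood at 46.4, 33.0 and 5.94 CPM in MN1_KO, against 13.3, 84.9 and 5.30 CPM in MN1_WT. Angpt1 stood at 47.0, 34.2 and 4.37 CPM in MN1_KO, against 16.2, 65.8 and 13.3 CPM in MN1_WT. In all 3 genes MN1_WT replicate 3 was the highest of the 6 libraries. Col1a1 stood at 3.58, 5.38 and 11.3 CPM in MN1_KO, against 8.77, 4.25 and 13.1 CPM in MN1_WT, where replicate 3 was the lowest. MN1_WT replicate 4 was the highest of its group for 21 of 31 members, and MN1_KO replicate 8 for 17 of 31. Without MN1_WT replicate 3, Serpine2 was called higher and Alpl lower (edgeR adjusted p = 0.0363 and 0.0400), beside 455 genes higher and 441 lower of 13807. Without replicates 2 and 4, which leaves 1 MN1_WT library assumed to vary like the others, 0 members were called.

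A single member differed in its knockout effect between the experiments. The log2 fold change of MN1_KO over MN1_WT minus that of aged_KO over aged_WT was 2.73 ± 0.61 for Mgp (SE, n = 3 in each of 4 groups; edgeR adjusted p = 0.0411). Its level in the aged libraries was 3.97, 2.96 and 2.05 CPM in aged_KO, against 3.47, 4.51 and 3.10 CPM in aged_WT, with overlapping groups. Higher calls took 1 of 26 members, where 1.41% of 13937 genes were called higher, and lower calls took 0 of 26, where 1.92% were called lower. The Mgp call was lost without any 1 of the 6 aged libraries, without MN1_KO replicate 7 and without MN1_WT replicate 2 or 4 (edgeR adjusted p from 0.0628 to 0.1115), and without both of these MN1_WT libraries (edgeR adjusted p = 0.185). Its direction held in every such fit.

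The comparison of MN1_WT with aged_WT called 2 members higher and 0 lower of 26, where 1.0% of 13937 genes were called higher and 2.58% lower. Mmp13 (chromosome 9, 7272514 to 7283331, plus strand) stood at 9.34, 6.37 and 15.2 CPM in MN1_WT, against 0.966, 1.60 and 1.32 CPM in aged_WT. The groups were far apart, and the log2 fold change was 2.98 ± 0.45 (SE, 3 libraries a group; edgeR adjusted p = 0.00976), and the call held in all 6 fits that left out 1 library and without both Mn1-low libraries. Col5a2, a chain of type V collagen that sets fibril width, stood at 1.26, 1.46 and 3.24 CPM in MN1_WT, against 0.511, 0.679 and 0.509 CPM in aged_WT. Its log2 fold change was 1.80 ± 0.43 (SE; edgeR adjusted p = 0.0462). That call was lost with either other filter (edgeR adjusted p = 0.0603 and 0.0504), in 5 of 6 fits that left out 1 library (all but MN1_WT replicate 3) and without both Mn1-low libraries (edgeR adjusted p up to 0.170). It held with both other scalings and with DESeq2. The median log2 fold change was 0.95 over the tested members and 0.06 over all genes, but 0.24 and 0.02 without MN1_WT replicates 2 and 4.

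Without MN1_WT replicates 2 and 4, when MN1_WT is replicate 3 alone and is assumed to vary like the other groups, 6 of 29 tested members were higher and 1 was lower than aged_WT, beside 1691 genes higher and 774 lower of 14652. The 6 were Mmp13, Fbn1, Foxc1, Igfbp5, Postn and Serpine2, and the member that fell was Lepr. Foxc1 and Postn failed the filter within the aged libraries and were tested here because they were high with MN1. Postn, the matricellular protein periostin, stood at 1.53, 16.8 and 2.33 CPM in MN1_WT, against 0.398, 0.388 and 0.458 CPM in aged_WT, and Foxc1 at 1.15, 12.9 and 1.27 CPM in MN1_WT, against 0.227, 0.340 and 0.967 CPM in aged_WT. For both genes every MN1_WT library was above aged_WT and replicate 3 was highest. With all MN1_WT libraries DESeq2 called 5 of 26 members higher, beside 771 genes higher and 1020 lower of 13937.

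The comparison of MN1_KO with aged_KO asks the same in knockout marrow. MN1_KO had 12 of 26 tested members higher than aged_KO and 1 lower, with matrix genes, a collagenase, niche genes and protease and growth factor modulators among the higher ones. These are 46.2% and 3.85% of the tested members, where 21.1% of 13937 genes were called higher and 16.8% lower. The median log2 fold change was 1.42 over the tested members and 0.08 over all genes. Foxc1 and Postn, both among the 12 higher members, again were tested only through the MN1 libraries, so the 46.2% rests in part on them. The number of higher members ranged from 3 to 11 when 1 library was left out: it was 3 of 27 without aged_KO replicate 9, 5 of 27 without aged_KO replicate 10 and 6 of 27 without MN1_KO replicate 7. In those fits 1223 of 14236, 1901 of 14279 and 1704 of 14184 genes were called higher, so without either aged_KO library the members' share lay much nearer to that of all genes. These comparisons share the aged_KO and MN1_KO libraries with the knockout comparisons above and are not independent of them.

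Among the secreted modulators, Serpine2 stood at 452, 278 and 137 CPM in MN1_KO, against 31.2, 35.4 and 49.0 CPM in aged_KO. Every MN1_KO library was above every aged_KO library, the log2 fold change was 2.91 ± 0.54 (SE, n = 3 and 3; edgeR adjusted p = 0.00425), and the call held in all 6 fits that left out 1 library. Igfbp5 (chromosome 1, 72857932 to 72874884, minus strand) stood at 55.8, 169 and 127 CPM in MN1_KO, against 16.7, 13.9 and 2.82 CPM in aged_KO. It was higher in 3 of 3 libraries, with a log2 fold change of 3.38 ± 1.2 (SE; edgeR adjusted p = 0.0454), but the call was lost without the filter and in each of the 6 fits that left out 1 library (edgeR adjusted p up to 0.123). Igfbp4 averaged 145 ± 29.8 CPM in MN1_KO and 171 ± 40.2 CPM in aged_KO (SD, n = 3 each), with overlap.

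Of the 6 other matrix genes, Mgp, Bgn, Postn and Fbn1 were called higher, Dcn was not called and Lum was not tested. Mgp stood at 5.05, 11.2 and 13.7 CPM in MN1_KO, against 3.97, 2.96 and 2.05 CPM in aged_KO, with a log2 fold change of 1.73 ± 0.43 (SE; edgeR adjusted p = 0.0130). Bgn stood at 12.1, 11.1 and 23.5 CPM in MN1_KO, against 7.28, 5.07 and 4.23 CPM in aged_KO, with a log2 fold change of 1.49 ± 0.42 (SE; edgeR adjusted p = 0.0195). Neither gene overlapped, and for both MN1_KO replicate 8 was the highest library. Both calls were lost without aged_KO replicate 9, and that of Bgn also without aged_KO replicate 10 (edgeR adjusted p up to 0.0509 for Mgp and 0.0720 for Bgn). Postn stood at 3.54, 29.2 and 1.05 CPM in MN1_KO, against 0.361, 0.258 and 0.282 CPM in aged_KO, with a log2 fold change of 5.21 ± 1.35 (SE; edgeR adjusted p = 0.0147). Fbn1 stood at 46.4, 33.0 and 5.94 CPM in MN1_KO, against 3.73, 3.44 and 4.38 CPM in aged_KO, with a log2 fold change of 2.89 ± 0.96 (SE; edgeR adjusted p = 0.0362). For these 2 genes replicate 8 was the lowest MN1_KO library, though still above aged_KO. Without MN1_KO replicate 7 the log2 fold change of Postn was 2.91 and the call was lost, as it was without aged_KO replicate 9 (edgeR adjusted p up to 0.0613). The call of Fbn1 held in 1 of 6 fits that left out 1 library, the one without MN1_KO replicate 8 (edgeR adjusted p up to 0.110 in the others). Dcn, the proteoglycan decorin, was below aged_KO in every MN1_KO library and was not called (edgeR adjusted p = 0.268).

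Of the collagens, the type VI chains rose. Col6a1 (chromosome 10, 76708792 to 76726168, minus strand) stood at 3.31, 2.65 and 5.42 CPM in MN1_KO, against 1.38, 0.945 and 0.141 CPM in aged_KO, with a log2 fold change of 2.17 ± 0.61 (SE; edgeR adjusted p = 0.0203). Its neighbour Col6a2 (76595762 to 76623630, minus strand) stood at 2.21, 1.67 and 4.45 CPM in MN1_KO, against 0.963, 0.344 and 0.212 CPM in aged_KO, with a log2 fold change of 2.44 ± 0.68 (SE; edgeR adjusted p = 0.0198). Neither gene had overlapping groups. Both calls were lost without aged_KO replicate 9, and that of Col6a2 also without aged_KO replicate 10 (edgeR adjusted p up to 0.0625 for Col6a1 and 0.0803 for Col6a2). Col1a1 was level by comparison, at 3.58, 5.38 and 11.3 CPM in MN1_KO, against 4.82, 6.23 and 10.3 CPM in aged_KO (edgeR adjusted p = 0.916). Col3a1 and Col5a2 lay wholly above aged_KO without a call, and Col1a2 overlapped.

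Of the bone formation genes, Mmp13 and Sparc were called higher. Mmp13 stood at 7.38, 4.48 and 10.6 CPM in MN1_KO, against 2.83, 2.28 and 1.41 CPM in aged_KO, with a log2 fold change of 1.78 ± 0.43 (SE; edgeR adjusted p = 0.0109) that held in all 6 fits that left out 1 library. Sparc (chromosome 11, 55394500 to 55423183, minus strand) stood at 8.72, 11.4 and 19.3 CPM in MN1_KO, against 5.96, 6.05 and 4.23 CPM in aged_KO, with a log2 fold change of 1.27 ± 0.40 (SE; edgeR adjusted p = 0.0302). Neither gene had overlapping groups, and the call of Sparc held in 1 of 6 fits that left out 1 library, the one without MN1_KO replicate 5 (edgeR adjusted p up to 0.0918 in the others). Alpl stood at 0.301, 0.256 and 0.786 CPM in MN1_KO, against 0.903, 1.07 and 0.635 CPM in aged_KO, lower on average but overlapping and not called (edgeR adjusted p = 0.194). Ibsp stood at 1.74, 2.05 and 4.93 CPM in MN1_KO, against 1.5, 2.06 and 1.27 CPM in aged_KO, and was not called (edgeR adjusted p = 0.182).

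Of the niche genes, Kitl and Foxc1 were called higher and Lepr lower. Kitl stood at 4.34, 5.72 and 2.01 CPM in MN1_KO, against 2.41, 1.46 and 0.635 CPM in aged_KO, with a log2 fold change of 1.41 ± 0.51 (SE; edgeR adjusted p = 0.0487). MN1_KO replicate 8 overlapped aged_KO, and the call was lost with median-of-ratios scaling (edgeR adjusted p = 0.0561), with either other filter and without aged_KO replicate 9 or 10 or MN1_KO replicate 5 or 7 (edgeR adjusted p up to 0.171). Lepr stood at 5.28, 4.01 and 3.49 CPM in MN1_KO, against 10.7, 6.74 and 7.34 CPM in aged_KO, without overlap, with a log2 fold change of -0.95 ± 0.30 (SE; edgeR adjusted p = 0.0306). The Lepr call was lost with library totals alone (log2 fold change -0.57, edgeR adjusted p = 0.156) and without aged_KO replicate 3 or 9 or MN1_KO replicate 7 or 8 (edgeR adjusted p up to 0.114). Foxc1 stood at 1.5, 2.99 and 1.22 CPM in MN1_KO, against 0.181, 0.301 and 0 CPM in aged_KO, with a log2 fold change of 3.41 ± 1.15 (SE; edgeR adjusted p = 0.0389) on 143 counts in all in MN1_KO against 10 in aged_KO. Its call held in 1 of 6 fits that left out 1 library, the one without MN1_KO replicate 8 (edgeR adjusted p up to 0.106 in the others), and DESeq2 gave it no adjusted p. Adipoq and Ebf3 lay wholly above aged_KO and were not called (edgeR adjusted p = 0.0542 and 0.0761), and Angpt1 overlapped, with 4.37 CPM in MN1_KO replicate 8. Pdgfrb stood at 13.4, 5.04 and 4.85 CPM in MN1_KO, against 4.45, 4.94 and 4.87 CPM in aged_KO, with only replicate 5 set apart. Over all tested members, 15 of 26 had MN1_KO libraries wholly above aged_KO, where 27.7% of genes did, and 2 wholly below, where 22.4% did.

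**Figure D4:**
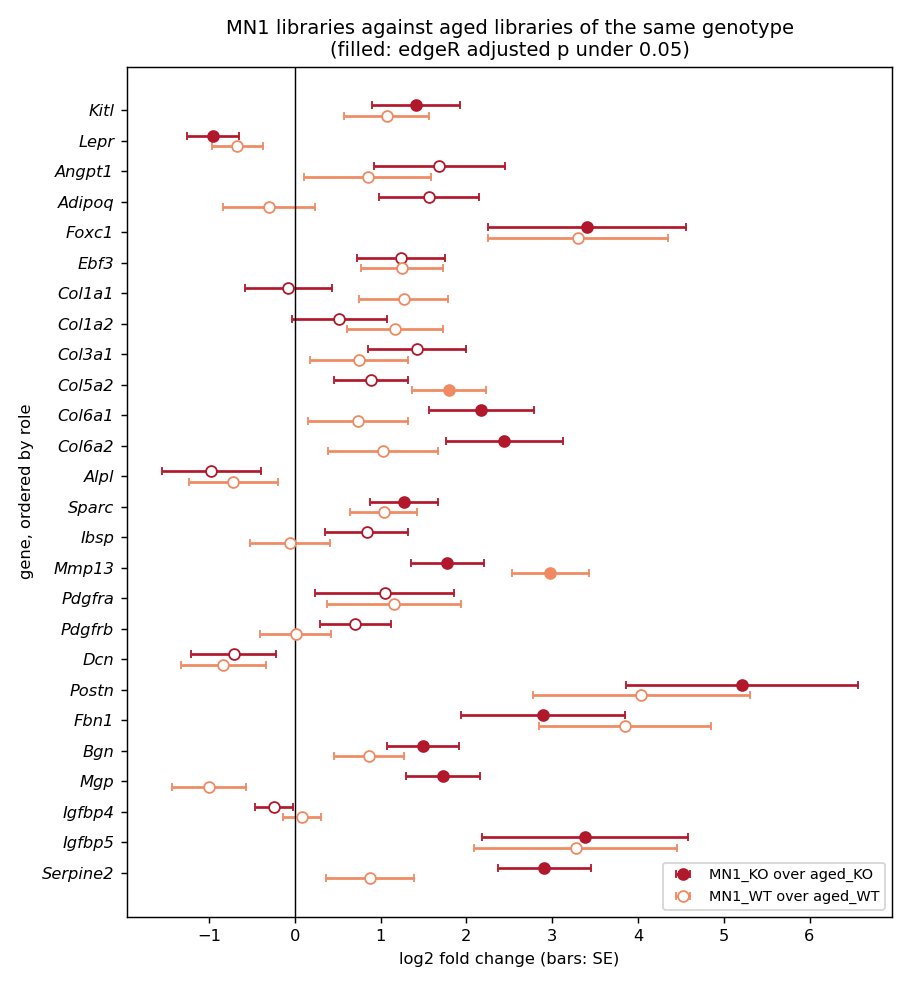
Log2 fold change with its SE for the 26 tested genes in MN1_KO over aged_KO (dark) and MN1_WT over aged_WT (light); filled points passed the edgeR threshold. There are 13 filled dark points and 2 filled light ones, and Postn, Foxc1, Igfbp5 and Fbn1 have wide bars in both.

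Set by the level of Mn1 itself, 4 libraries stood at 22.2 to 41.1 CPM (MN1_KO replicates 5, 7 and 8 and MN1_WT replicate 3) and the other 8 at 0.0859 to 1.25 CPM. Igfbp5 and Serpine2, 2 of 26 tested members, were higher in each of the 4 than in any of the 8. That is a smaller share than the 13.5% of all genes with this pattern. Serpine2 ran from 105 to 452 CPM in the 4, against 28.1 to 49.0 CPM in the 8. Lepr, 1 of 26 tested members, was lower in each of the 4, also a smaller share than the 9.43% of all genes. This sorting follows a measured gene and not the labels, so it is a description without a test. Mmp13 and Sparc did not follow Mn1: Mmp13 was at 9.34 and 15.2 CPM in the Mn1-low MN1_WT replicates 2 and 4, above the 0.966 to 2.83 CPM of every aged library.

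**Figure D5:**
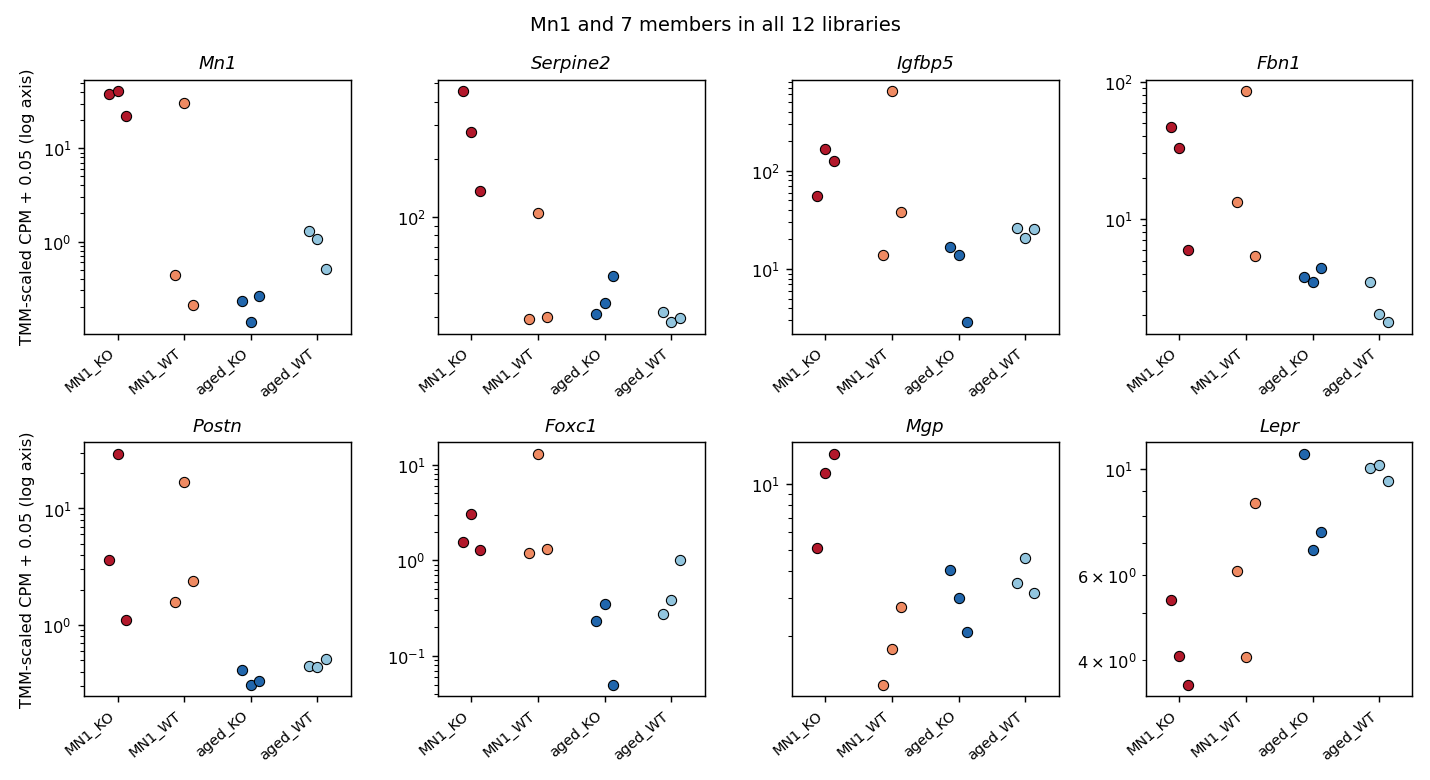
TMM-scaled CPM + 0.05 on a log axis for Mn1 and 7 of the genes in all 12 libraries (points, 3 per group). MN1_WT replicate 3, the middle point of its group, lies with MN1_KO for Mn1, Serpine2 and Igfbp5, while MN1_WT replicates 2 and 4 lie near the aged libraries; all 3 MN1_KO libraries are above the other 9 for Mgp.

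Further list genes in MN1_KO against aged_KO are given beside the background of 21.1% of all genes called higher and 16.8% lower. Niche stroma genes had 9 of 24 tested higher and 1 lower (median log2 fold change 1.25), osteolineage genes 6 of 16 higher and 2 lower (0.98), and genes of matrix and collagen processing 11 of 38 higher and 3 lower (0.67). Within the aged libraries only 17, 12 and 32 genes of these lists passed the filter on low counts. The others were tested through the MN1 libraries, so the shares and medians here and with MN1_WT below rest in part on them. The basement membrane genes Col18a1 (4.21) and Col4a1 (2.41) rose, as did Col6a3 (5.44), the third chain of type VI collagen, at 17.4 ± 16.9 CPM in MN1_KO against 0.369 ± 0.347 CPM in aged_KO (SD, n = 3 each; edgeR adjusted p = 0.00321). Vcam1, an adhesion molecule of stromal cells, rose (1.13), and Mcam fell (-2.49). The matching lists in MN1_WT against aged_WT had 1 of 24 higher and 1 lower, 2 of 16 higher and 0 lower, and 2 of 38 higher and 0 lower. The background of that comparison was 1.0% of all genes called higher and 2.58% lower.

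Markers of other cells in the same comparison were as follows. Cartilage genes had 3 of 3 tested higher, summing to 9.26 to 11.6 CPM in MN1_KO against 0.558 to 1.2 CPM in aged_KO. Most of that sum was Hapln1, at 8.34 ± 2.24 CPM in MN1_KO (SD, n = 3) and 0 counts in aged_KO, while Col9a1 and Matn3 were at 0 in MN1_KO. Within the aged libraries only 1 cartilage gene, Comp, passed the filter on low counts. Hapln1 and Col2a1 were tested through the MN1 libraries, so the 3 of 3 rests in part on them. Likewise, 2 skeletal muscle, 6 pericyte and 8 adipocyte genes passed it there, fewer than were tested here. Skeletal muscle genes had 1 of 4 higher and 0 lower, at 6.36 to 9.74 CPM in MN1_KO against 3.19 to 3.60 CPM in aged_KO, with Myh1 and Myl1 at 0 in both groups. Endothelial genes had 4 of 14 higher and 3 lower, at 113 to 200 CPM in MN1_KO against 73.7 to 89.3 CPM in aged_KO. Pericyte genes had 1 of 7 higher and 0 lower, at 6.52 to 17.2 CPM in MN1_KO against 10.4 to 14.9 CPM in aged_KO. Adipocyte genes had 1 of 10 higher and 1 lower, at 167 to 257 CPM in MN1_KO against 222 to 252 CPM in aged_KO. Osteoclast genes had 1 of 5 higher and 2 lower, at 145 to 155 CPM in MN1_KO against 202 to 265 CPM in aged_KO.

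Among blood cells, neutrophil genes had 8 of 12 lower and 0 higher, at 19400 to 91300 CPM in MN1_KO against 116000 to 158000 CPM in aged_KO. Megakaryocyte genes had 4 of 12 higher and 4 lower, at 141 to 282 CPM in MN1_KO against 71.3 to 156 CPM in aged_KO. B lineage genes had 2 of 12 higher and 1 lower, and erythroid genes 1 of 9 higher and 2 lower. The part of these cell types, or of a lower share of neutrophil transcripts, in the levels of the 31 genes was not tested.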

How the data were processed

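Stranded, poly(A)-selected RNA libraries (TruSeq Stranded mRNA, per the labels' protocols) of 12 bone marrow samples were analysed. The deposited expected counts and TPM per gene symbol were made by the authors with RSEM 1.2.28, Bowtie2 2.3.4.3 and build mm10, per the submitters' processing notes; the annotation is not given in the sources used here. The deposited TPM values were used only to compare levels between genes. Expected counts were rounded to whole numbers. After filterByExpr and TMM scaling, the robust quasi-likelihood test of edgeR 4.0.16 (R 4.3.3) was run, with Benjamini-Hochberg adjustment over all tested genes and a threshold of 0.05. Knockout effects were fitted on the 6 libraries of each table, and the other contrasts on all 12 libraries. CPM values use TMM scaling over 12 libraries. The test was tried on simulated counts beforehand. Gene spans come from a GENCODE annotation of GRCm38 and start sequences from RefSeq.

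Alternatives were median-of-ratios scaling, library totals alone, no filter, at least 1 CPM in 3 libraries, DESeq2 1.42.0, the spread of all 12 libraries for the knockout effects, and leaving out libraries. The members and lists were chosen with earlier results of these data known. Values are printed for every member that was called and for Kitl, Lepr, Adipoq, Col1a1, Bglap, Bglap2, Sparc, Pdgfrb, Foxc1 and Ebf3, with further members by range; other genes are Hopx, Mn1 and at most 3 per list by smallest p. Igfbp4, Col1a2 and the sex-linked genes were added after their values were seen.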

Additional observations from a re-analysis of the deposited data

Results flagged for a closer look

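Mgp was picked out because its knockout effect differed between the experiment with MN1 and the aged experiment, by a log2 difference of 2.73 ± 0.61 (SE; edgeR adjusted p = 0.0411; DESeq2 adjusted p = 0.00102). MN1_KO averaged 9.97 ± 4.44 CPM and MN1_WT 1.85 ± 0.781 CPM, while aged_KO averaged 2.99 ± 0.963 CPM and aged_WT 3.69 ± 0.731 CPM (SD, n = 3 each). The call held in 3 of 12 fits that left out 1 library, namely those without MN1_KO replicate 5, MN1_KO replicate 8 or MN1_WT replicate 3, and the difference ranged from 2.43 to 3.07 over the 12.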

How the results depend on the processing

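Over 21 calls of single members and 244 values under alternatives, 179 stayed past the threshold, 65 did not and 0 changed direction. The number of members higher in aged_KO than in aged_WT, 0 in the report, was 1 with median-of-ratios scaling, 1 without the filter, 2 with DESeq2 and 0 to 2 when 1 library was left out; the number lower, 5, was 2 with the spread of all 12 libraries and 4 to 6 with 1 library left out. In MN1_KO against MN1_WT, 0 higher and 0 lower became 2 and 1 with DESeq2, 2 and 1 with the spread of all 12 libraries, and 0 to 1 in each direction with 1 library left out. Members with a larger knockout effect with MN1 numbered 1, but 2 with DESeq2, 0 without MN1_WT replicates 2 and 4, and 0 to 3 with 1 library left out; the 3 were Mgp, Igfbp5 and Serpine2, without MN1_WT replicate 3. Members higher in MN1_WT than in aged_WT numbered 2, but 1 without the filter, 1 with the stricter filter, 5 with DESeq2, 6 without MN1_WT replicates 2 and 4, and 1 to 2 with 1 library left out; those lower numbered 0, and 1 without both. In MN1_KO against aged_KO, 12 higher became 3 to 11 and 1 lower became 0 to 1 with 1 library left out, and with library totals alone 17 were higher and 0 lower. The causes were not tested. Library totals alone moved the median log2 fold change of all genes to -0.20 in the aged comparison (1046 genes higher and 3381 lower, against 1987 and 2021) and to 0.46 in MN1_KO against aged_KO (5350 higher and 1358 lower, against 2936 and 2345), so directions of small changes depend on the scaling. No paired analysis was possible because the groups compared share fewer than 2 replicate numbers. Foxc1, Postn and the osteocalcin genes rest on few counts in the aged libraries, and 3 libraries per group limit every test.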

Other observations

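Over the 12 libraries, the genes whose TMM-scaled CPM ranked most like that of Col1a1 among 13937 tested genes were Smpd5 (Spearman rho 0.895), Ccdc9 (0.888), Kri1 (0.888), Jmjd6 (0.867) and Eml3 (0.853). None of these is a matrix gene. Among the members, Col1a2 came closest to Col1a1 (0.706), followed by Mmp13 (0.538) and Igfbp4 (0.427), and Angpt1 was farthest (-0.657). The 12 points share 4 groups and 2 tables, so these are descriptions without a test.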
